A study of Mus musculus with 8 samples.

Results

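The genes described here encode the structures that hold basal keratinocytes to the basement membrane: the integrin subunits Itga6, Itgb4, Itga3 and Itgb1, the hemidesmosomal proteins Col17a1 and Dst, the laminin-332 chains Lama3 and Lamb3, and the anchoring fibril collagen Col7a1. They were chosen by name, with earlier results of these data known, as 9 rows of a deposited table of 15995 genes. All 9 passed the filter on low values, which left 11389 genes for testing. Total RNA of epidermis from newborn mice of C57BL/6J, an inbred black laboratory strain, was sequenced in 4 samples labelled ZFP750-/- (knockout) and 4 labelled WT (wild type). In each group the skin had lain in cold trypsin-EDTA overnight before the epidermis was peeled off and frozen. The labels give no treatment besides the genotype, no sex and no number of pups per sample, and do not say how the allele was made. Nothing says that the samples came from separate litters, so p-values measure the spread between these samples, which may be technical.

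A hemidesmosome joins the keratin filaments of a basal keratinocyte to the basement membrane. Its receptor is the integrin made of the alpha 6 and beta 4 subunits, which binds laminin-332 outside the cell and plectin and the epithelial form of dystonin inside, while collagen XVII spans the membrane beside it. The alpha 3 beta 1 integrin binds the same laminin but links to actin, and collagen VII fibrils fasten the basement membrane to the dermis. Loss of function in many of these genes causes blistering skin, and their transcripts are typical of the basal layer.

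Sequences upstream of annotated start sites are shown for 4 members: the gene with the largest change (Itgb1), a laminin chain and a hemidesmosomal collagen that were higher in the knockouts (Lamb3 and Col17a1), and a matrix collagen that did not pass the test (Col7a1). Each is the 250 bases before a start site on the gene's own strand, from RefSeq (GRCm38.p6, the build also called mm10). Capitals mark letters, on either strand, that match CCNNAGGC, a motif reported for the human homologue ZNF750, or the GC box GGGCGG.
Itgb1 (chr8:128685404-128685653, plus strand): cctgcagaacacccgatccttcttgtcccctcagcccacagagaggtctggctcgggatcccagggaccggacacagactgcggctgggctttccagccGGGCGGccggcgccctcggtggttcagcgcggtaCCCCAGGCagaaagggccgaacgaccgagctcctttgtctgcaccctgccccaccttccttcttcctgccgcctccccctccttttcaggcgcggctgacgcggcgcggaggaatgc
Lamb3 (chr1:193301744-193301993, plus strand): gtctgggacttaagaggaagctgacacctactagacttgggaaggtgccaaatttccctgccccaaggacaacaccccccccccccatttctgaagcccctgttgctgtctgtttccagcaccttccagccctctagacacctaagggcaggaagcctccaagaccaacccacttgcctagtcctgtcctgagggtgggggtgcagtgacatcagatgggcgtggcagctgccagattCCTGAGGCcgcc
Col17a1 (chr19:47692043-47692292, minus strand): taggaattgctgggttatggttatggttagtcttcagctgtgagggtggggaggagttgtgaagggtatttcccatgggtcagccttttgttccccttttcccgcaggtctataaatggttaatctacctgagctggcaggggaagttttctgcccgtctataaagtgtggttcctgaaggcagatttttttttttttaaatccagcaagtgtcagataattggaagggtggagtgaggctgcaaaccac
Col7a1 (chr9:108953336-108953585, plus strand): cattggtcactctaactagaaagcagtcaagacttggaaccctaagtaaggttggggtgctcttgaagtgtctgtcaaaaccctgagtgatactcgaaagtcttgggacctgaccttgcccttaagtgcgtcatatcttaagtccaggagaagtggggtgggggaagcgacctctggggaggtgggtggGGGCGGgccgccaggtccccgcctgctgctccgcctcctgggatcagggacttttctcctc

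The motif search covered both strands of windows of 300 bases, from 250 before to 50 after each start site. Windows were matched for 6 members (Dst, Lamb3, Itgb1, Col7a1, Itga3 and Col17a1), 9 windows in all, and those of Itga6, Itgb4 and Lama3 were not used here. CCNNAGGC lay in 2 of the 9, starting at -117 from the start site in Itgb1 and at -12 in Lamb3, and in 24.1% of all 32851 windows. The GC box lay in 5 of the 9 and in 35.7% of all windows. The AP-1 motif TGACTCA was in 5.2% of all windows and the E-box CACGTG in 7.15%, and neither was in a window of these genes. The motifs do not share letters in the matches shown, and a match is a description of letters only.

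Levels are in FPKM, fragments per kilobase of transcript and scaled to the number of mapped fragments. The transcript length used for each gene is not stated by any source used here, and comparisons between genes depend on it. Annotated coding transcripts run from 5551 to 10548 bases for Lama3 and from 1029 to 4867 for Lamb3. Libraries are numbered here as knockouts 1 to 4 and wild types 1 to 4, in the order of the deposit. The titles of knockouts 1 and 2 both begin with KO1 and differ in a code, and the labels do not say whether these 2 libraries come from separate animals. That code, which each title carries (RM11, RM14 or RM44), has no meaning given in the labels. It is code 11 in knockout 1 and wild type 4, code 14 in knockout 2 and wild type 3, and code 44 in the other 4 libraries. Between 10632 and 11592 genes per library reached 1 FPKM, and steps in the low values put the depths between 1 and 1.46 times that of knockout 1. Zfp750 stood at 1.53 to 2.68 FPKM in the knockouts and 81.6 to 119 among wild types, as labelled. All 10 genes listed as basal keratinocyte markers were present, with a summed level of 2948 to 7580 FPKM in the knockouts and 1985 to 4425 among wild types. Krt1 and Krt10, defining keratins of the suprabasal layers, were listed at 0 in 6 libraries, while other suprabasal genes such as Lor were abundant in all 8.

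Of the 9 genes, 6 were higher in the knockouts: all 4 integrin subunits, Col17a1 and Lamb3. Dst, Lama3 and Col7a1 did not pass the test, although their mean was higher in the knockouts too. The test was limma on log2(FPKM + 1) over all 11389 genes, with a call at a Benjamini-Hochberg adjusted p under 0.05. In that comparison 6.75% of all genes (769) were called higher, 8.94% lower and 15.7% either way. The share among these genes was above that background. They were chosen with earlier results of these data known, so the higher share is a description only. The groups did not overlap for 5 of the 9, with every knockout higher, as for 8.78% of all genes tested. Their median log2 change was 1.48, against 0.01 over all tested genes. In bulk samples, more basal cells and more RNA of these genes per basal cell cannot be told apart.

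**Figure D1:**
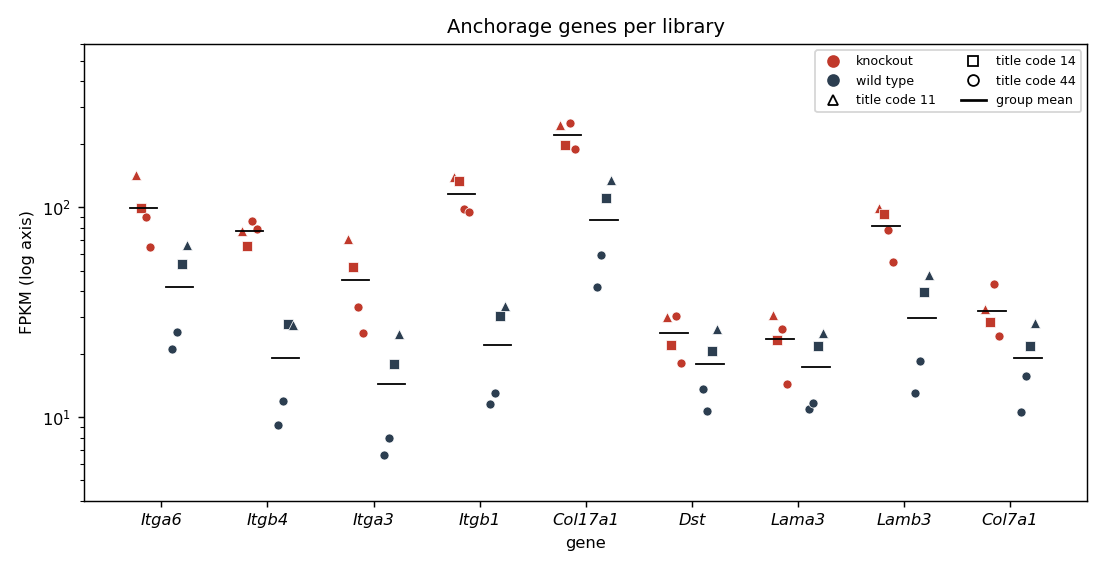
FPKM (log axis) of the 9 genes in each library, knockouts in red and wild types in dark blue, with the marker shape giving the title code and a line the group mean. Itgb4, Itga3, Itgb1, Col17a1 and Lamb3 show no overlap between the groups, and the wild types of code 44 lie lowest for every member.

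Among the receptors, the beta subunits differed most. Itgb1, the beta subunit that pairs with many alpha chains, stood at 138.7, 133.1, 97.8 and 94.5 FPKM from knockout 1 to knockout 4, and at 11.6, 13.1, 30.3 and 33.9 in wild types 1 to 4. Every knockout was far above every wild type. Means were 22.2 ± 11.5 FPKM in wild type and 116 ± 23.1 in the knockouts (SD, n = 4 each), which is 2.46 ± 0.33 on the log2 scale (SE; limma adjusted p = 0.00111). It ranked 45 among the 11389 genes ordered by rise. Itgb4, the hemidesmosomal beta subunit with a long cytoplasmic tail, stood at 77.0, 65.7, 85.7 and 79.2 FPKM in the knockouts and at 9.18, 12.0, 28.0 and 27.6 among wild types. The knockouts lay close together, including knockout 4, and the wild types fell into a lower and a higher pair. The mean went from 19.2 ± 10.0 to 76.9 ± 8.33 FPKM (SD, n = 4 each; log2 change 2.09 ± 0.33, SE; limma adjusted p = 0.00244).

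The alpha subunits changed less and varied more among knockouts. Itga3, the laminin-binding partner of the beta 1 chain, stood at 70.6, 51.8, 33.7 and 25.06 FPKM from knockout 1 to knockout 4, and at 6.62, 7.98, 17.9 and 24.98 in the wild types. The groups did not overlap, but knockout 4 and wild type 4 were nearly equal. The log2 change was 1.67 ± 0.43 (SE; limma adjusted p = 0.0284). Itga6, the alpha chain of the hemidesmosomal integrin, stood at 143.2, 99.3, 90.0 and 64.6 FPKM in the knockouts and at 21.2, 25.4, 53.6 and 66.3 among wild types. Knockout 4 lay just below wild type 4, so the groups overlapped. The mean was 99.3 ± 32.8 against 41.6 ± 21.9 FPKM (SD, n = 4 each; log2 change 1.33 ± 0.37, SE; limma adjusted p = 0.0383).

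Of the other hemidesmosomal proteins, the collagen was called and the linker was not. Col17a1, the transmembrane collagen XVII, was the most abundant of the 9 genes in each of the 8 libraries. It stood at 247, 198.5, 252.8 and 190.0 FPKM from knockout 1 to knockout 4, and at 41.8, 59.2, 111.3 and 134.4 in the wild types. All knockouts were higher, and knockouts 1 and 3 were the highest pair (log2 change 1.48 ± 0.33, SE; limma adjusted p = 0.0143). Dst, the dystonin gene whose epithelial form ties keratins to the plaque, stood at 29.9, 22.1, 30.2 and 18.2 FPKM in the knockouts and at 13.6, 10.7, 20.7 and 26.3 among wild types. Knockouts 2 and 4 fell within the wild-type range. The log2 change was 0.52 with a 95% interval from -0.09 to 1.13 (limma adjusted p = 0.253). The 14 annotated coding transcripts of Dst run from 776 to 23279 bases, and a level per gene does not show which of them was measured.

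The laminin-332 chains Lama3 and Lamb3 differed in their calls. Lamb3, the beta 3 chain, stood at 98.8, 92.9, 78.2 and 54.8 FPKM from knockout 1 to knockout 4, and at 13.1, 18.6, 39.5 and 47.9 in the wild types. The groups did not overlap (log2 change 1.56 ± 0.38, SE; limma adjusted p = 0.0219). Lama3, the alpha 3 chain, stood at 30.6, 23.2, 26.3 and 14.3 FPKM in the knockouts and at 10.99, 11.69, 21.89 and 25.11 among wild types. Knockouts 2 and 4 were below wild type 4, and the log2 change was 0.45 with a 95% interval from -0.23 to 1.14 (limma adjusted p = 0.376). Col7a1, the collagen of the anchoring fibrils, stood at 32.7, 28.5, 43.0 and 24.4 FPKM in the knockouts and at 10.55, 15.8, 21.96 and 28.2 among wild types. Only knockout 4 overlapped the wild types, and the log2 change was 0.77 with a 95% interval from 0.15 to 1.40 (limma adjusted p = 0.0967).

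The order of the mean levels differed between the genotypes, and no test of order was run. In wild type the means ran from Col17a1 (86.7 FPKM) over Itga6 (41.6), Lamb3 (29.8), Itgb1 (22.2), Itgb4 (19.2), Col7a1 (19.1), Dst (17.9) and Lama3 (17.4) to Itga3 (14.4). Below Col17a1 each step between neighbours was smaller than their SDs. In the knockouts Itgb1 stood second at 116 FPKM, and Col7a1, Dst and Lama3 came last with 32.2, 25.1 and 23.6 FPKM. There Itgb1 and Itga6 (99.3 FPKM) lay closer than their SDs, and in knockout 1 Itga6 (143.2) was above Itgb1 (138.7). The level of Itgb1 was above that of 56.9% to 81.0% of tested genes in the wild types and of 94.6% to 96.3% in the knockouts.

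Library differences within a genotype were shared by these genes. All 9 were lower in wild types 1 and 2 than in wild types 3 and 4, and 8 had their lowest knockout value in knockout 4, the exception being Itgb4. The summed level of the 9 was 868.5, 715.1, 737.8 and 565.2 FPKM in knockouts 1 to 4 and 138.6, 174.4, 345.1 and 414.7 in wild types 1 to 4. Over the 36 pairs of these genes, the correlation of log2(FPKM + 1) across the 8 libraries had a median of 0.90. After the genotype means were removed it had a median of 0.87 and ranged from 0.70 to 0.98. These are descriptions, as all genes of a library share its depth and tissue makeup. Summed levels of markers of other cells had similar low libraries, although a sum can rest on 1 gene. The summed level of 10 melanocyte markers was lowest in wild type 1 (15.6 FPKM), knockout 4 (19.3) and wild type 2 (34.0). It was 53.4 in wild type 3, 90.6 in wild type 4 and 86.8 to 99.8 in knockouts 1 to 3. That of 10 hair follicle markers was 319.2 to 871 FPKM in the knockouts and 160.9 to 438 among wild types, with wild types 1 and 2 lowest. Krt17 alone gave 813.6 of the 871 FPKM in knockout 1. Of 8 tested genes of that list 7 had log2 changes above 0, and Krt71 had -1.15. Krt27, not tested, had means of 0.373 FPKM in the knockouts and 3.50 in wild type. The summed level of 13 fibroblast markers was 30.1 to 238.2 FPKM in the knockouts and 37.9 to 106.6 among wild types. Its genes differed in order: Dcn was lowest in knockout 4 (6.11 FPKM) and Col1a1 in knockout 1 (0.667). The 4 endothelial markers summed to at most 3.22 FPKM in any library, with Pecam1, Tek and Esam under 1 in each. Pdgfrb and Dpt of the fibroblast list, Oca2 of the melanocyte list and Esam were listed at 0 in at least 1 library. No tested marker of these 4 cell types was called. Of the 10 genes listed as basal markers 3 were called higher (30%, against 6.75% of all tested genes), namely Krt14, Sfn and Sox6. The other 7 did not pass, and Krt15 and Igfbp2 had log2 changes of -0.09 and -0.70. Sfn ran against the wild-type order of the 9 genes, with 746.6 and 738.2 FPKM in wild types 1 and 2. It had 634.3 and 641.2 in wild types 3 and 4, while Krt14 followed that order. Whether Sfn marks the basal layer in these samples was not tested. Of 11 tested suprabasal markers 2 were called higher (18.2%), Ivl and Calm5. Casp14 was called lower (9.1%, near the 8.94% of all genes). The part of any of these cell types in the result was not tested.

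Setting libraries of like title code side by side kept the calls. Within code 44, where knockouts 3 and 4 meet wild types 1 and 2, all 9 genes were higher in both knockouts. That held for 34.7% of all genes tested there. The same 6 genes were called as in all libraries (limma adjusted p under 0.05, 5.93% of genes called higher). Codes 11 and 14 were pooled, with knockouts 1 and 2 against wild types 3 and 4. There 7 genes were higher in both knockouts than in both wild types, the exceptions being Dst and Lama3. Such a separation held for 24.9% of all genes tested there, and again the same 6 were called, where 6.1% of genes were called higher. Within code 11 and within code 14, 1 library against 1, Dst and Lama3 were higher in the knockout too. Dst had 29.9 against 26.3 FPKM in code 11 and 22.1 against 20.7 in code 14. Lama3 had 30.6 against 25.1 and 23.2 against 21.9. The log2 change of Itgb4 was 2.86 in code 44 and 1.33 in codes 11 and 14, and that of Col17a1 was 2.12 and 0.85. Itgb1 had 2.87 and 2.05. The difference between the codes was 1.53 ± 0.23 for Itgb4 (SE; limma interaction adjusted p = 0.124) and did not pass for any of the 9, and 0 of 11389 genes passed (1773 at an unadjusted p under 0.05).

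**Figure D2:**
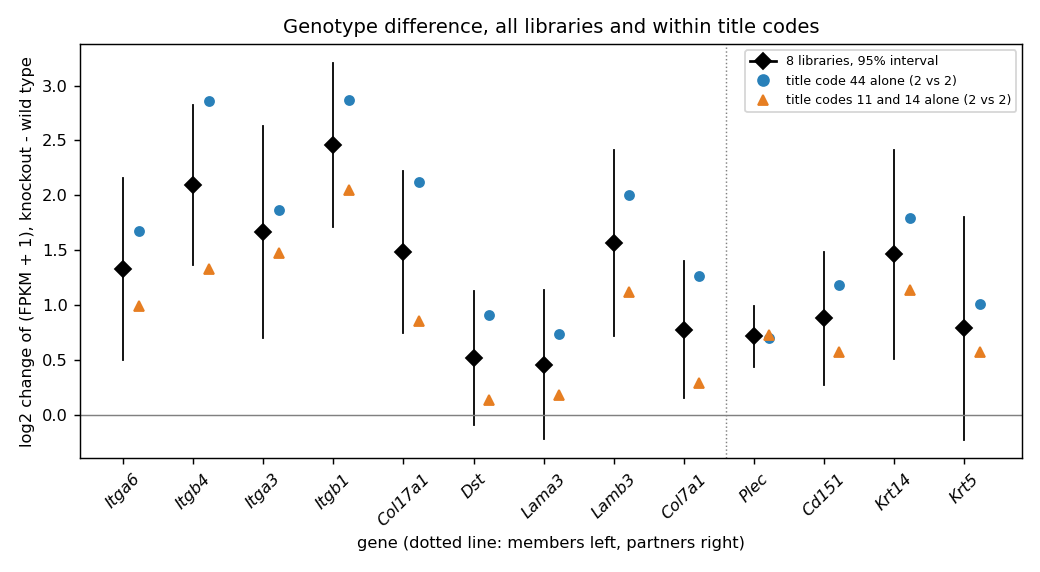
Log2 change of (FPKM + 1), knockout minus wild type, for the 9 genes and for Plec, Cd151, Krt14 and Krt5: black diamonds with 95% intervals for 8 libraries, blue circles for title code 44 alone and orange triangles for codes 11 and 14 alone. Estimates in code 44 exceed those in codes 11 and 14 for all 9 members, and those of Dst and Lama3 in codes 11 and 14 lie near 0.

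Of the 6 calls, 3 changed when a single library was left out. Those of Itgb4, Itgb1 and Col17a1 were kept whichever library was left out. Those of Itga6, Itga3 and Lamb3 were lost without knockout 1, 2 or 3 or wild type 2 (Lamb3 with limma adjusted p = 0.0589, 0.059, 0.0551 and 0.0664), and those of Itga6 and Itga3 also without wild type 1 (0.0976 and 0.0781). Col7a1 was called when wild type 4 was left out (limma adjusted p = 0.0383). Xist, expressed from an inactive X chromosome, had 84.6 to 150 FPKM in knockouts 1 to 3 and 118 in wild type 3. It had 1.84 in knockout 4 and at most 0.0223 in wild types 1, 2 and 4. With log2 Xist as a covariate, Itgb1 and Itgb4 were the 2 members called, with log2 changes of 2.11 ± 0.37 and 1.79 ± 0.38 (SE). The 4 lost calls then had log2 changes of 1.17 ± 0.37 for Col17a1, 1.12 ± 0.40 for Lamb3, 1.20 ± 0.48 for Itga3 and 0.90 ± 0.40 for Itga6 (SE; limma adjusted p = 0.0900, 0.130, 0.165 and 0.216). The labels give no sex.

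Ratios within a library show where 2 genes changed unequally. Each of 27 ratios was compared by exact permutation (two-sided, 70 ways to assign libraries). Its smallest possible p is 0.0286, which 15 ratios reached, with an adjusted p = 0.0514 over the 27, so that none passed 0.05 after adjustment. The ratio of Lama3 to Lamb3 was 0.309, 0.250, 0.337 and 0.262 in knockouts 1 to 4 and 0.839, 0.629, 0.554 and 0.525 in wild types 1 to 4. Every knockout was below every wild type, and knockout 4 lay among the other knockouts here. The mean log2 ratio differed by -1.12 ± 0.18 (SE; exact permutation p = 0.0286).

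The beta integrins stood higher against their alpha partners in the knockouts. The ratio of Itgb4 to Itga6 was 0.537, 0.661, 0.952 and 1.23 in knockouts 1 to 4 and 0.416 to 0.522 in the wild types, without overlap. That of Itgb1 to Itga3 was 1.97, 2.57, 2.91 and 3.77 in the knockouts and 1.36 to 1.75 among wild types. Both were highest in knockout 4, which had the lowest alpha chains of the knockouts. The ratio of Col17a1 to Itgb4 was 2.40 to 3.21 in the knockouts and 3.98 to 4.94 among wild types, and that of Col7a1 to Lamb3 0.307 to 0.550 against 0.556 to 0.850. Each of these 4 had the smallest possible p (exact permutation p = 0.0286). The ratio of Itgb1 to Itgb4 was 1.80 and 2.03 in knockouts 1 and 2 against 1.14 and 1.19 in knockouts 3 and 4, and 1.08 to 1.26 in the wild types (exact permutation p = 0.229).

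**Figure D3:**
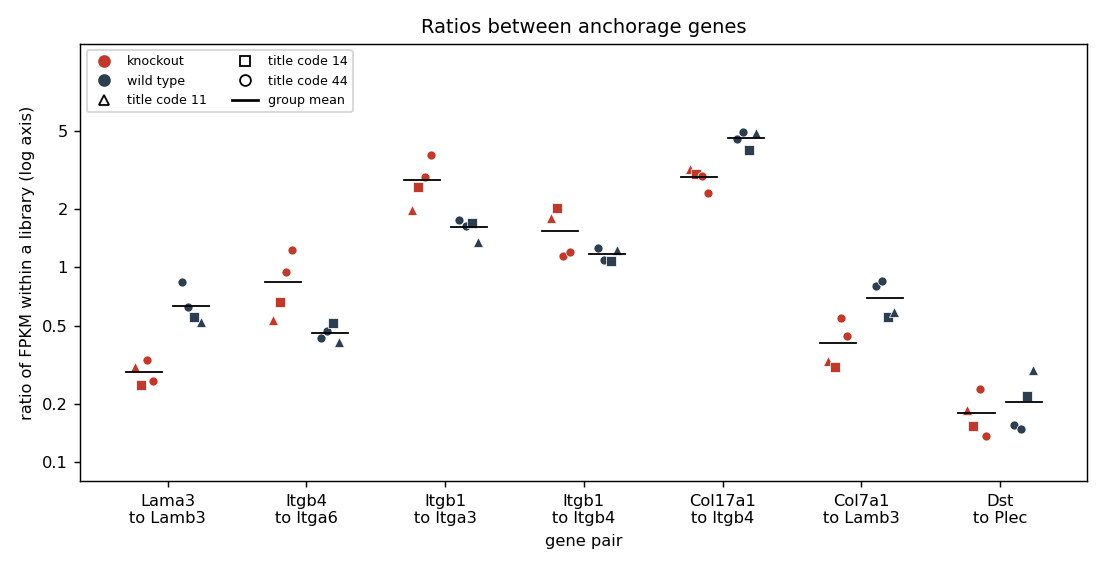
Ratio of the FPKM of 2 genes in the same library (log axis), knockouts in red and wild types in dark blue, marker shape for the title code and a line for the group mean. The groups are apart for Lama3 to Lamb3, Itgb4 to Itga6, Itgb1 to Itga3, Col17a1 to Itgb4 and Col7a1 to Lamb3, and overlap for Itgb1 to Itgb4 and Dst to Plec.

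Krt14 and Krt5, the keratin pair of the basal layer, gave a measure of these genes against basal keratin RNA. Krt14 itself rose from 875 ± 423 to 2351 ± 945 FPKM (SD, n = 4 each; log2 change 1.46 ± 0.42, SE; limma adjusted p = 0.0450), with knockout 4 (1112 FPKM) below wild types 3 and 4 (1215 and 1253). The call of Krt14 was lost without knockout 1, 2 or 3 or wild type 1 or 2 (limma adjusted p from 0.0955 to 0.12). Krt5 did not pass, at 1304 ± 545 against 766 ± 396 FPKM (limma adjusted p = 0.299). Against Krt14, Itgb1 stood at 0.0417, 0.0604, 0.0355 and 0.0850 in knockouts 1 to 4 and at 0.0213 to 0.0278 in the wild types. Itgb4 had 0.0231 to 0.0712 against 0.0195 to 0.0230, with knockout 1 at the edge of the wild types and knockout 4 far above. Both were without overlap. The ratios of Itga6, Col17a1 and Lamb3 to Krt14 overlapped, with differences of -0.10 ± 0.19, 0.04 ± 0.27 and 0.14 ± 0.21 in the mean log2 ratio (SE; exact permutation p = 0.657, 0.971 and 0.571). Their signs turned when 1 library was left out: 0.04 for Itga6 without knockout 3, and -0.22 for Col17a1 and -0.0045 for Lamb3 without knockout 4. The ratios of Itga3 and Col7a1 to Krt14 overlapped as well (exact permutation p = 0.343 and 0.0571). Lama3 and Dst were lower against Krt14 in the knockouts without overlap, by -0.98 ± 0.16 and -0.91 ± 0.29 (log2, SE; exact permutation p = 0.0286 for each). Against Krt5, Itgb1, Itgb4, Itga3, Col17a1 and Lamb3 were higher in every knockout, and Itga6, Dst, Lama3 and Col7a1 overlapped.

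**Figure D4:**
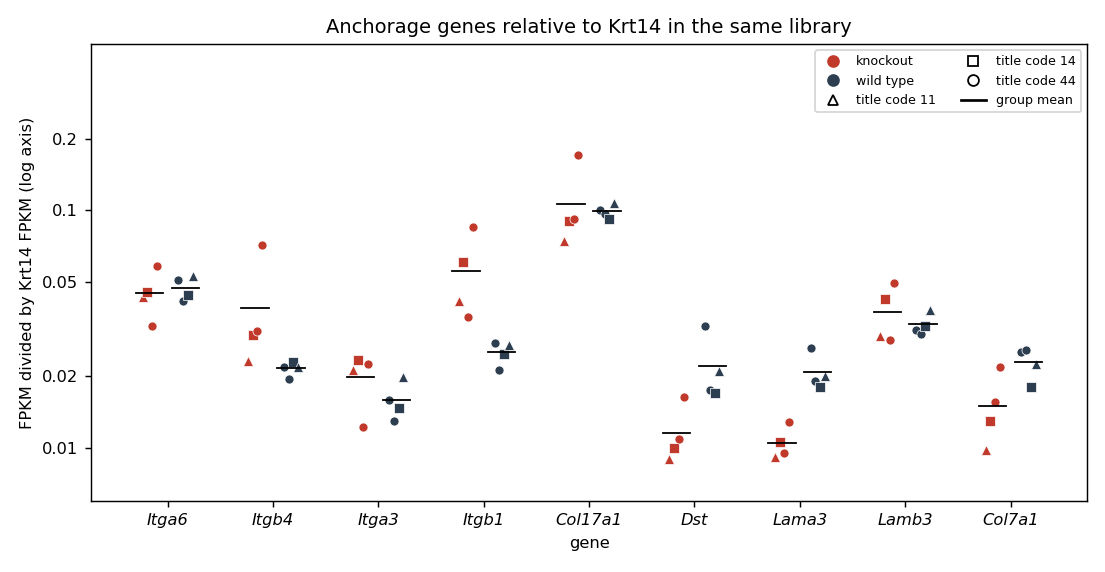
FPKM of each of the 9 genes divided by that of Krt14 in the same library (log axis), knockouts in red and wild types in dark blue, marker shape for the title code and a line for the group mean. Itgb4 and Itgb1 lie higher and Dst and Lama3 lower in the knockouts, and the circle farthest above the other knockouts for Itgb4, Itgb1 and Col17a1 is knockout 4.

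Other genes of anchorage and adhesion were read from lists that were chosen with earlier results of these data known. Beside each list stand the shares over all tested genes, 6.75% called higher and 8.94% lower. Among 9 partners, Plec and Krt14 were called higher (22.2%) and Lad1 lower (11.1%), and 5 were higher with title code as a block in the fit. That block raised the count over all genes to 1044 higher and 1231 lower, from 769 and 1018. Plec, the plectin that joins the beta 4 subunit to keratins, stood at 161.5, 144.6, 126.4 and 132.8 FPKM in the knockouts and at 87.4, 72.3, 95.2 and 88.8 among wild types. It varied little within a genotype, and knockout 4 was not the lowest knockout (log2 change 0.71 ± 0.12, SE; limma adjusted p = 0.00423). Lad1, ladinin, an anchoring filament protein, went the other way, from 149.7 ± 21.6 to 99.6 ± 16.04 FPKM (SD, n = 4 each; log2 change -0.59 ± 0.15, SE; limma adjusted p = 0.0248), a call lost without knockout 3 or wild type 1 or 3 (0.0761, 0.0744 and 0.0507). The tetraspanin Cd151, which binds laminin-binding integrins, did not pass at 29.7 ± 5.08 against 16.5 ± 6.44 FPKM (limma adjusted p = 0.0555; 0.03 without knockout 4 and also without wild type 4), nor did Tns4 (limma adjusted p = 0.0555) and Erbb2ip, the erbin gene, at 71.2 against 71.8 FPKM.

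Of the other 22 integrin subunits 20 were in the table and 8 were tested, 1 of them called higher and 1 lower (12.5% each). Itga2, the alpha chain of a collagen receptor that also pairs with beta 1, stood at 7.59, 6.92, 7.70 and 8.23 FPKM in the knockouts and at 0.693, 0.893, 2.05 and 2.31 among wild types (log2 change 1.85 ± 0.23, SE; limma adjusted p = 6.1e-04). It was as high in knockout 4 as in the others. Itgam, a subunit of leukocytes, fell from 3.63 ± 0.311 to 1.08 ± 0.0410 FPKM (SD, n = 4 each; limma adjusted p = 3.6e-04). Itgav, Itgb5, Itgb6, Itgb8, Itga5 and Itga2b did not pass, with log2 changes from -0.38 for Itgb5 to 0.46 for Itga5. The median of the 8 was 0.12.

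Of 30 other basement membrane genes 23 were tested and 3 were called higher (13%), namely Col18a1, Col4a5 and Col4a6, while 20 did not pass. With title code as a block 9 of the 23 were called higher, and with log2 Xist as a covariate 2 were. Col18a1, whose product carries endostatin, stood at 51.8, 51.7, 59.7 and 60.2 FPKM in the knockouts and at 7.63, 8.42, 16.9 and 15.5 among wild types (log2 change 2.19 ± 0.24, SE; limma adjusted p = 2.85e-04). Its knockouts were closely spaced and far above the wild types. Col4a5 (log2 change 0.97 ± 0.18) and Col4a6 (1.04 ± 0.24), neighbouring genes of collagen IV chains, rose as well (limma adjusted p = 0.00521 and 0.0173). Col4a1 and Col4a2, the main collagen IV chains, did not pass, nor did Lama5 (37.7 against 18.1 FPKM, limma adjusted p = 0.0672) and Agrn (53.3 against 26.5, limma adjusted p = 0.0630). The list median was 0.66, and 21 of the 23 changes were above 0. Without knockout 4, 8 genes of this list were called higher, 7 without wild type 4, and without knockout 3 or wild type 2 it was 2, Col4a6 being lost.

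Of 32 tested genes of integrin adaptors and focal adhesions, 5 rose (15.6%) and 3 fell (9.4%, near the 8.94% of all genes), with a median of 0.23. With title code as a block 9 were called higher. Rsu1 (log2 change 2.08 ± 0.29) and Lims1 (1.69 ± 0.22), members of the complex around integrin-linked kinase, rose from 5.08 ± 2.78 to 22.9 ± 3.37 FPKM and from 7.56 ± 2.85 to 25.5 ± 2.21 FPKM (SD, n = 4 each; limma adjusted p = 0.00139 and 9.54e-04). The kinase gene Ilk itself had 16.7 ± 2.60 against 11.1 ± 3.12 FPKM and did not pass (limma adjusted p = 0.0898). The scaffold Bcar1 (1.12 ± 0.21), talin 1, Tln1 (1.04 ± 0.25), and the kinase Ptk2b (0.53) rose. Fermt3, the kindlin of blood cells, Itgb1bp1, which binds the beta 1 tail, and Kank1 fell, by 0.92, 0.70 and 0.60 on the log2 scale. Fermt3 stood at 0.144 to 0.467 FPKM in the knockouts and passed the filter of 1 FPKM only through the wild types (1.02 to 2.15), so its fall is a description that supports nothing. The count that rose was 9 without knockout 4 and 3 without knockout 1, 2 or 3 or wild type 2, where Tln1 was lost.

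Among 21 tested matrix processing genes 4 rose (19.0%) and 1 fell (4.8%), with a median of 0.25. P4ha1, a prolyl hydroxylase subunit of collagen synthesis, went from 3.47 ± 2.50 to 15.9 ± 3.10 FPKM (SD, n = 4 each; log2 change 2.08 ± 0.37, SE; limma adjusted p = 0.00491). Plod3 (1.32 ± 0.32), a lysyl hydroxylase, Tll1 (1.18 ± 0.22), a protease related to Bmp1, and the membrane protease Mmp14 (1.31) rose as well. The inhibitor Timp2 fell from 4.95 ± 1.20 to 1.80 ± 0.757 FPKM (limma adjusted p = 0.0135). Without knockout 1, 2 or 3 or wild type 2, 2 genes of the list were called higher, with Plod3 lost.

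**Figure D5:**
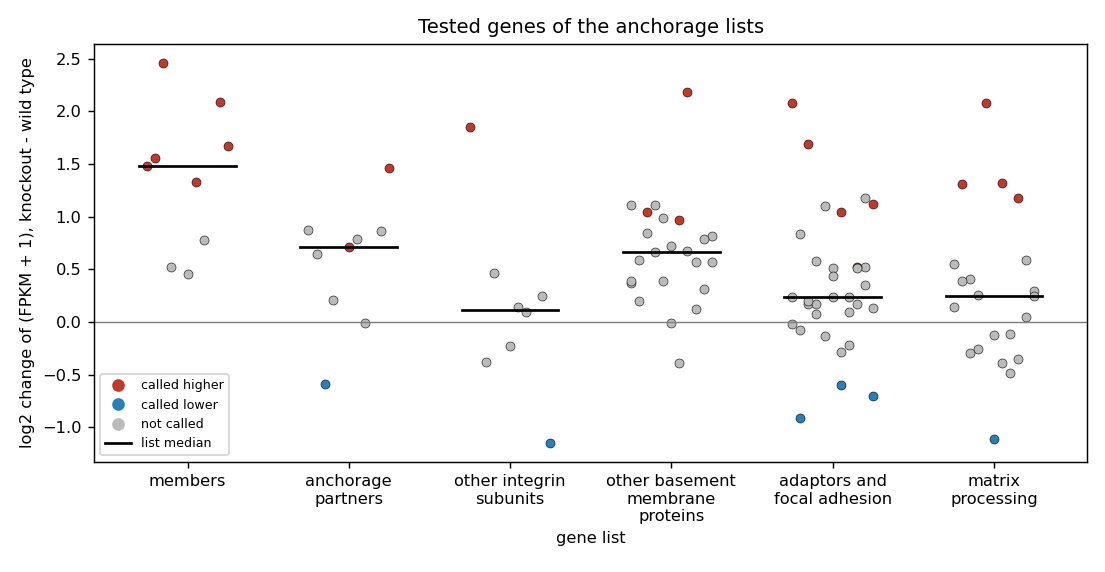
Log2 change of (FPKM + 1), knockout minus wild type, of each tested gene in 6 lists: red called higher, blue called lower, grey not called, and a line for the list median. The 9 members have the highest median, 1.48, and they were chosen with such values known.

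The genes whose profile over the 8 libraries was most like the mean of the 9 standardized members were found by Pearson correlation of log2(FPKM + 1). They were Agrn (0.992), Tmem132a (0.991), Tln1 (0.991), Fam213a (0.989), Cdh13 (0.988), Fry (0.987), Slc7a6 (0.987) and Trim32 (0.986). This is a description over 8 libraries, as all genes of a library share its tissue makeup. Of the 8, 6 were themselves called higher, and Agrn and Slc7a6 were not, where 6.75% of all tested genes were called higher. The 8 were picked by values that carry the genotype difference, so their calls support nothing. Of these calls, Cdh13, Fam213a, Fry and Trim32 were lost without any one of knockouts 1 to 3 or wild types 1 and 2. Fry was also lost without wild type 3 (limma adjusted p = 0.055). Tln1 was lost without knockout 1, 2 or 3 or wild type 2 (limma adjusted p from 0.0519 to 0.0611), and Tmem132a without wild type 2. Agrn was called without knockout 4 or wild type 4 (0.0321 and 0.0213), and so was Slc7a6 (0.0333 and 0.0417).

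On GRCm38 (GENCODE M21), Itgb1 spans 128685654 to 128733200 of chromosome 8, Itgb4 115974709 to 116008412 and Itga3 95044474 to 95076801 of chromosome 11, and Itga6 71745616 to 71858416 of chromosome 2. Lamb3 spans 193207699 to 193343878 and Dst 33908225 to 34308661 of chromosome 1, Lama3 12333819 to 12583013 of chromosome 18, Col17a1 47646344 to 47692094 of chromosome 19 and Col7a1 108953586 to 108984875 of chromosome 9. Col17a1 and Itga3 lie on the minus strand and the others on the plus strand. Exons of a noncoding gene on the opposite strand share 537 of the 7015 exonic bases of Itgb4, 197 of 10745 of Lama3 and, for a pair of such genes, 456 and 1037 of 41155 of Dst. Reads there cannot be told apart if counting did not use strand, which no source used here states.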

How the data were processed

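Epidermal RNA of 4 knockout and 4 wild-type samples was depleted of ribosomal RNA and sequenced as stranded paired-end libraries, per the labels' protocols. The authors deposited one table of FPKM values per gene and library, and the submitters' processing notes name the build mm10. No source used here states the aligner, quantifier, annotation or use of strand, and absolute depth is unknown. Missing values were set to 0, and 15 genes listed at 0 in some libraries and at 100 FPKM or more in others were left out, Krt1 and Krt10 among them.

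Groups came from the genotype labels. log2(FPKM + 1) was fitted with limma 3.58.1 (R 4.3.3, mean-variance trend) over genes with at least 1 FPKM in at least 4 of 8 libraries, and p-values were adjusted by Benjamini-Hochberg over all of them. Fold changes on this scale understate those of low genes. The fit was tested on simulated data. Ratios of untransformed FPKM were compared with scipy 1.17.1. Alternatives were other pseudocounts, filters, scalings, array weights, Xist and title code as covariates, each code alone, and each library left out.

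The members and lists were chosen with earlier results of these data known. Named genes are the 9 members, Plec, Cd151, Krt5, Krt14, up to 4 genes per list with the smallest p, further called list members as examples, and the 8 most like the member mean. Ilk, Erbb2ip, Col4a1, Col4a2, Lama5, Krt15, Igfbp2 and the integrins that did not pass were named after their values were seen. One further gene, counted in its list and in 2 of the 27 ratios, is not reported here.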

Additional observations from a re-analysis of the deposited data

Results flagged for a closer look

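In 3 of 78 groups of 4 libraries (39 named genes in both genotypes) 1 library lay far from the other 3, each time knockout 4 as the lowest knockout. These were Cd151 at 22.16 FPKM, Tln1 at 18.96 FPKM and Fam213a at 25.27 FPKM. Each gap, as a share of the group's range, passed Dixon's 95% critical value, and chance flags about 1 group in 20.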

How the results depend on the processing

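Of 1499 values under alternative settings 1303 were classed as the same, 88 lost and 34 gained a call, 74 moved and 0 turned a called direction. The same means an equal direction and call for a gene, a count that differs moderately from the main count, or a ratio within the pooled SD. For counts this class is wide. It takes in 9 members called higher with array weights against 6 in the main fit. It also takes in 1090 genes called higher without knockout 4 against 769. Some ratios that were not called changed sign within the pooled SD, such as Col17a1 to Krt14 (-0.22 without knockout 4). Of 22 alternatives, Itgb1 and Itgb4 were called in 22, Col17a1 in 21, Lamb3 in 17, Itga3 in 16, Itga6 in 15, Col7a1 in 2 and Dst and Lama3 in 1 each; the cause was not tested. Leaving out 1 library gave 3 to 7 members called higher, 475 to 1090 genes higher and 654 to 1249 lower. It gave 1 to 3 partners higher and 0 to 1 lower, 1 to 2 other integrins higher and 1 to 2 lower, 2 to 8 basement membrane genes higher, 3 to 9 adaptors higher, and 2 to 4 matrix genes higher and 1 to 2 lower.

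Array weights gave 1958 genes higher and 1730 lower, all 9 members, 6 partners, 2 integrins higher and 2 lower, 16 basement membrane genes, 13 adaptors, and 7 matrix genes higher and 3 lower. Xist as a covariate gave 473 genes, 2 members, 1 partner higher and 0 lower, 3 adaptors and 2 matrix genes. With title code as a block, 1044 genes were higher and 1231 lower (main 769 and 1018), and 6 members, 5 partners, 9 basement membrane genes and 9 adaptors were higher. Code 44 alone gave 590 genes lower, 6 basement membrane genes higher, and 0 adaptors and 0 matrix genes lower. Codes 11 and 14 alone gave 4 partners higher and 0 lower, 2 integrins higher and 2 matrix genes lower. No filter gave 1 partner higher, 5 integrins lower and 5 members, without Itga6. A minimum of 5 FPKM gave 0 integrins and 0 matrix genes lower, quantile normalization 2 and upper quartile scaling 3 matrix genes lower.

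The log2 ratio difference in code 44 and in codes 11 and 14 was 1.26 and 0.36 for Itgb4 to Itga6, -0.0087 and 0.73 for Itgb1 to Itgb4, -0.83 and -0.50 for Col17a1 to Itgb4, and 0.25 and -0.59 for Dst to Plec. The code is shared by few libraries and its meaning is unknown.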
